A study of Mus musculus with 6 samples.

Results

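The collagen genes are the genes whose protein chains wind into the triple helices of the extracellular matrix. They were taken by symbol, as every gene named Col, a number, a and a number, which gave 44 of the 25701 genes in the deposited table. Of these, 37 had a mean of at least 10 normalized counts over the 6 libraries and were tested, and 7 lay below it. They were read in polyA RNA-seq of CP (cardiac progenitor) cells, derived from the mouse embryonic stem cell line 46C, in 3 libraries labelled Zhx1-KO and 3 of 46C-Ctrl. The comparison asks which genes depend on Zhx1, a zinc finger and homeobox protein, at the CP stage of cardiomyocyte differentiation.

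The Zhx1-KO line was made by CRISPR/Cas9 with a pair of guides, aimed at the start and at the stop of Zhx1, in 46C cells, and 46C-Ctrl carries the labelled genotype control. The sources used here do not give the number of clones behind the Zhx1-KO line, so the deletion and any other difference between the lines cannot be told apart. Cells of both groups were differentiated in medium with ascorbic acid, the cofactor of the collagen prolyl hydroxylases, and were attached to plates coated with gelatin, which is denatured collagen. Beyond a general statement of independent experiments, separate cultures are not stated for these libraries, so the p-values cover only the spread among them, and this spread may be technical.

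In a collagen, 3 alpha chains, of 1 gene or of several, form a trimer. The chains are hydroxylated and folded in the endoplasmic reticulum, secreted as procollagens, trimmed by proteinases and cross-linked outside the cell. Fibrillar collagens build the fibrils that carry tension, type IV collagen builds the sheet of every basement membrane, FACIT collagens sit on the surface of fibrils, and transmembrane collagens stay anchored in the plasma membrane and can be shed from it. In the embryonic heart, basement membranes underlie the endocardium and the myocardium, and fibrillar collagens are laid down mainly in the cushions and by fibroblasts.

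Library sums, in units of the smallest step between values, were 13769967 to 15940874. The library 46C-Ctrl 2 stood apart from the others, with 2.77% of its values on mitochondrial genes, against 1.72% to 1.87% in the other 5. Zhx1 itself (chr15:58047003-58076541) had 225, 325 and 308 normalized counts in Zhx1-KO, against 460.3, 181 and 457 in 46C-Ctrl, and the groups overlapped (log2 fold change -0.25, standard error 0.35, limma adjusted p = 0.579). Without 46C-Ctrl 2 the log2 fold change was -0.70 with a limma adjusted p of 0.0113. The libraries are called here as their labels name them. Ddx3y and Uty, genes of the Y chromosome, were listed at 0 in all 3 Zhx1-KO libraries, against 603, 715 and 615 for Ddx3y and 267, 273 and 241 for Uty in 46C-Ctrl. Of 6 CP markers, 5 were lower in Zhx1-KO, 0 higher (also at an unadjusted p under 0.05 from limma), and 1 missed the threshold. Hand1 had 198 ± 28.1 in Zhx1-KO and 5774 ± 329 in 46C-Ctrl (SD, n = 3 each), and Tbx5, near 0 in Zhx1-KO, had 1.93 ± 1.02 in Zhx1-KO and 62.2 ± 4.78 in 46C-Ctrl (SD, n = 3 each). The markers other than Tbx5 had means of 179 to 327 in Zhx1-KO, with Isl1 the lowest and Nkx2-5 the highest.

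Collagen genes moved in both directions. Of the 37 tested, 17 were higher in Zhx1-KO and 13 lower, and 7 did not pass, at an adjusted p under 0.05 from limma. Called genes were 81.1% of them, where 52% of all genes tested were called, 25.6% as higher and 26.4% as lower. In 32 of the 37 there was no overlap between the groups, and that held for 60.8% of all genes. Changes of at least 2-fold were called in 11 as higher and 9 as lower, against 9.71% and 7.85% of all genes. The median log2 fold change was 0.65, beside 0.0088 for all genes, and the median size of the change was 1.26, beside 0.41. Col5a3, Col14a1 and Col15a1 passed the minimum only through the group in which they were high, so these counts describe the 37 and are no support for a trend. In bulk RNA, fewer cells of a type and less RNA per cell cannot be told apart, and this holds for every value here.

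**Figure D1:**
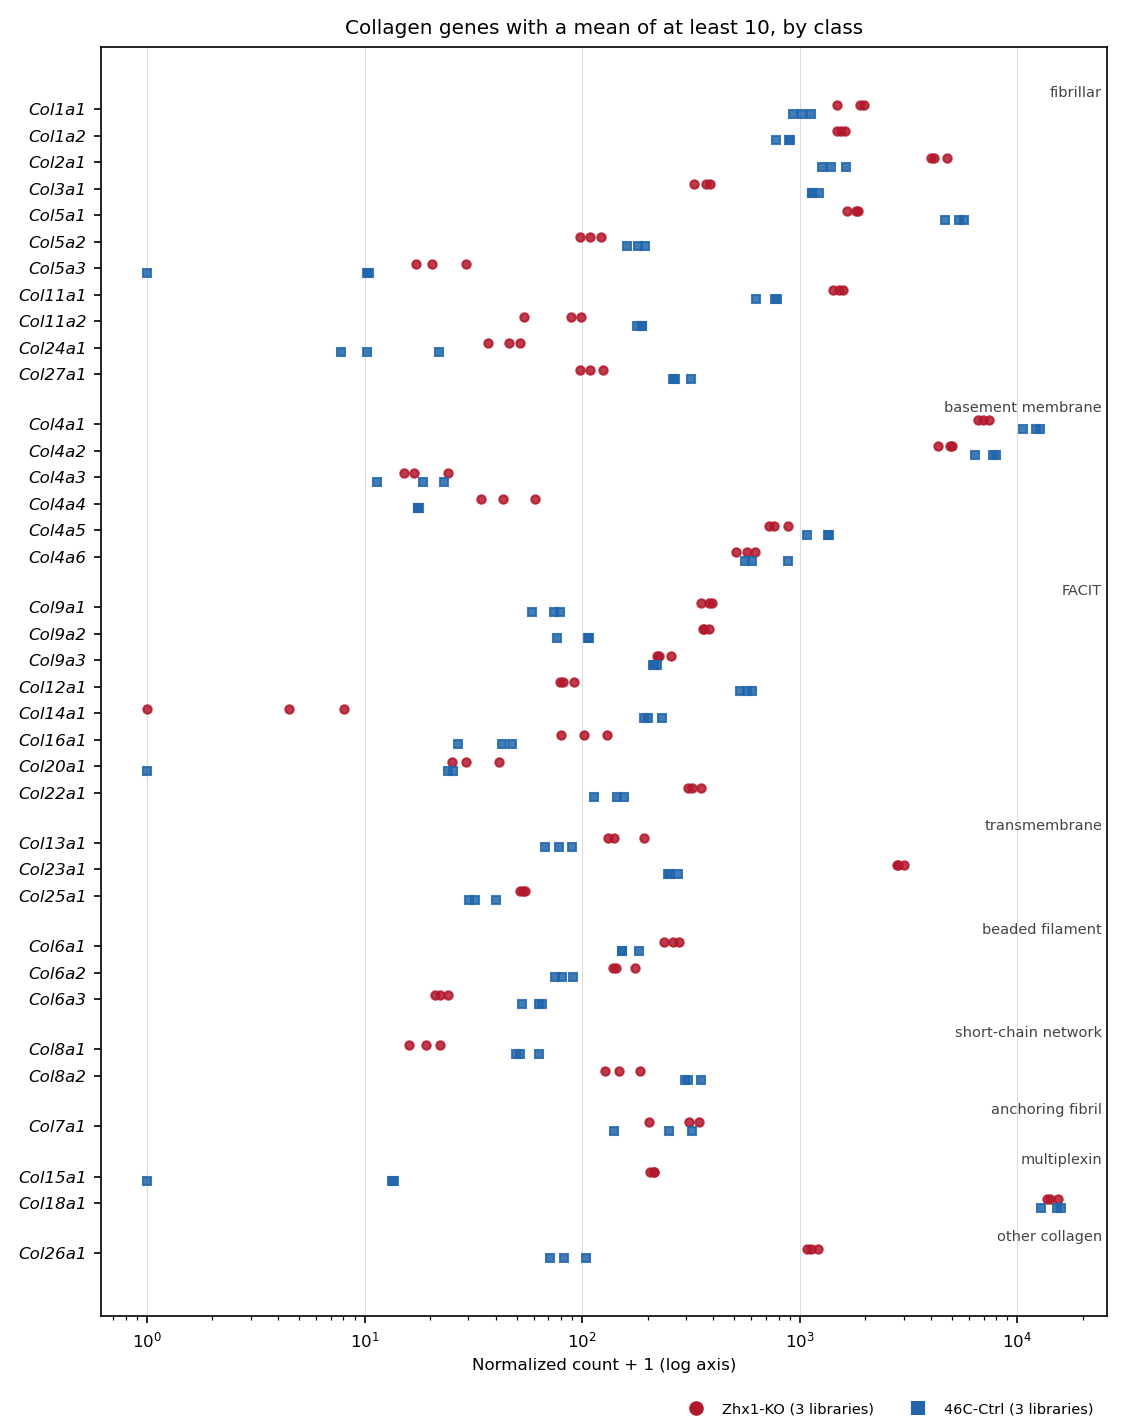
Normalized counts plus 1 (log axis) of the 37 collagen genes with a mean of at least 10, by class. Circles are the 3 Zhx1-KO libraries, with the 3 squares of 46C-Ctrl under them, and a point at 1 is a gene listed at 0. Col23a1 and Col26a1 lie far to the right in Zhx1-KO, Col12a1 and Col14a1 far to the left, and Col18a1 overlaps.

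Among the 11 fibrillar collagens, 5 were higher and 5 lower, and 1 missed the threshold. The chains of types I and II, with Col11a1 and Col24a1, were higher in Zhx1-KO. The chains of types III and V that passed, with Col11a2 and Col27a1, were lower.

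Type I collagen is the main collagen of bone, tendon and skin. Col1a1 (ENSMUSG00000001506.10, chr11:94936224-94953042, + strand) had 1901, 1976 and 1484 normalized counts in Zhx1-KO, against 1127, 935 and 1019 in 46C-Ctrl. Every Zhx1-KO library lay above every 46C-Ctrl library (log2 fold change 0.79, standard error 0.12, limma adjusted p = 0.000991). Its partner Col1a2 (ENSMUSG00000029661.16, chr6:4504814-4541544, + strand) had 1554, 1622 and 1480.4 in Zhx1-KO, against 902, 779.5 and 895 in 46C-Ctrl, again without overlap (log2 fold change 0.86, standard error 0.074, limma adjusted p = 6.38e-05). Col1a1 lies on chromosome 11, where the 1183 other genes tested had a median log2 fold change of 0.42, and the genes within 1 Mb of it had one of 0.45 over 38 genes. The part of this regional rise in the Col1a1 value was not tested. Around Col1a2 on chromosome 6 the median was 0.0067 over 13 genes.

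Type II collagen is the collagen of cartilage and of the sheath of the notochord. Col2a1 (ENSMUSG00000022483.17, chr15:97975602-98004695, - strand) was the most abundant fibrillar chain per kb of transcript in Zhx1-KO, with 4141, 4775 and 4001 normalized counts, against 1634, 1267 and 1391 in 46C-Ctrl. The groups lay far apart (log2 fold change 1.59, standard error 0.10, limma adjusted p = 1.63e-05). Type XI chains sit in the core of the cartilage fibril and limit its width, and they moved apart from each other. Col11a1 (ENSMUSG00000027966.20, chr3:114030540-114220718, + strand) had 1511, 1417 and 1584 in Zhx1-KO, against 766, 631 and 788 in 46C-Ctrl, and was higher (log2 fold change 1.05, standard error 0.094, limma adjusted p = 7.19e-05). Col11a2 (ENSMUSG00000024330.17, chr17:34039437-34066685, + strand) had 97.8, 88 and 52.8 in Zhx1-KO, against 187, 177 and 188 in 46C-Ctrl, and was lower (log2 fold change -1.25, standard error 0.23, limma adjusted p = 0.00284). Zhx1-KO replicate 3 was the lowest library for Col11a2 and the highest for Col11a1.

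Type III collagen accompanies type I in vessels and other distensible tissues. Col3a1 (ENSMUSG00000026043.18, chr1:45311538-45349706, + strand) had 387, 370.1 and 326 in Zhx1-KO, against 1227, 1135 and 1137 in 46C-Ctrl, the opposite direction to type I (log2 fold change -1.69, standard error 0.083, limma adjusted p = 4.14e-06). Type V collagen starts the assembly of type I fibrils. Col5a1 (ENSMUSG00000026837.15, chr2:27886425-28039514, + strand), the most abundant fibrillar chain per kb in 46C-Ctrl, had 1858, 1821 and 1643 in Zhx1-KO, against 5689, 4674 and 5411 in 46C-Ctrl (log2 fold change -1.56, standard error 0.084, limma adjusted p = 6.24e-06). Col5a2, which lies next to Col3a1 on chromosome 1 on the other strand, had 121, 107 and 96.8 in Zhx1-KO, against 194, 160.5 and 180.3 in 46C-Ctrl (log2 fold change -0.72, standard error 0.14, limma adjusted p = 0.00412). All of these libraries were lower in Zhx1-KO than any in 46C-Ctrl, while the other genes within 1 Mb of Col3a1 had a median log2 fold change of 0.0081 over 5 genes. The third type V chain, Col5a3, was near the minimum, with 28.2, 16.2 and 19.4 in Zhx1-KO, against 0, 9.32 and 9.49 in 46C-Ctrl. It did not pass (limma adjusted p = 0.0796), its fold depends on the pseudocount because of the library listed at 0, and with a pseudocount of 5 its adjusted p was 0.0374.

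Col24a1 and Col27a1 encode the more distant fibrillar chains, known from bone and cartilage. Col24a1 had 45.4, 50.6 and 36.1 in Zhx1-KO, against 6.83, 9.32 and 21.1 in 46C-Ctrl, low values that did not overlap (log2 fold change 1.88, standard error 0.43, limma adjusted p = 0.00776). Col27a1 had 96.8, 124 and 108 in Zhx1-KO, against 315, 266 and 260.5 in 46C-Ctrl, and was lower in each library (log2 fold change -1.35, standard error 0.14, limma adjusted p = 0.000155).

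Because fibrillar chains moved in opposite directions, the stretch of 150 bases before the start is shown for a pair that was lower and for 1 gene that was higher. The sequences are the gene strand from RefSeq (GRCm38.p6), which held an entry for 28 of the 37 tested genes and none for Col1a1, Col2a1, Col4a3, Col5a2, Col9a3, Col12a1, Col14a1, Col22a1 or Col26a1. Capitals mark the letters TATAAA (those of a TATA box), the letters CCAAT (of a CCAAT box) and the letters GGGCGG (of a GC box), on either strand and at any position. The TATAAA of Col3a1 begins at -117 from the start and is not taken as a working TATA box. Col3a1 is at chr1:45311388-45311537, + strand, Col5a1 at chr2:27886275-27886424, + strand and Col11a1 at chr3:114030390-114030539, + strand.
Col3a1: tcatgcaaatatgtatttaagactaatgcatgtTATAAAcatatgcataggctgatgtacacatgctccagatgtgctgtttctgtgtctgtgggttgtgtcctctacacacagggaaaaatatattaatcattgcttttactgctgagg
Col5a1: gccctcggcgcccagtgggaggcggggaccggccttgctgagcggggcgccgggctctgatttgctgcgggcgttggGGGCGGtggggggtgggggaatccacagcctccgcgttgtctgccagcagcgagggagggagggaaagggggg
Col11a1: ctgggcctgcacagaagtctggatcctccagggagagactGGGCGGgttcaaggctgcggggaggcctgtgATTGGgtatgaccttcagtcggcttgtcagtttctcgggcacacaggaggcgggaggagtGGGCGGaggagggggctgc
The lower pair differ from each other, with 37.3% G and C for Col3a1 and 74.7% for Col5a1, and Col11a1 had 64.7%. Over the 250 bases before the start, TATAAA stood in 3 of 31 collagen windows and in 12.4% of 32851 windows of all genes. CCAAT stood in 11 of 31 and in 33.8% of all, and GGGCGG in 19 of 31 and in 32.7% of all. These matches are letters only and say nothing of binding.

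**Figure D2:**
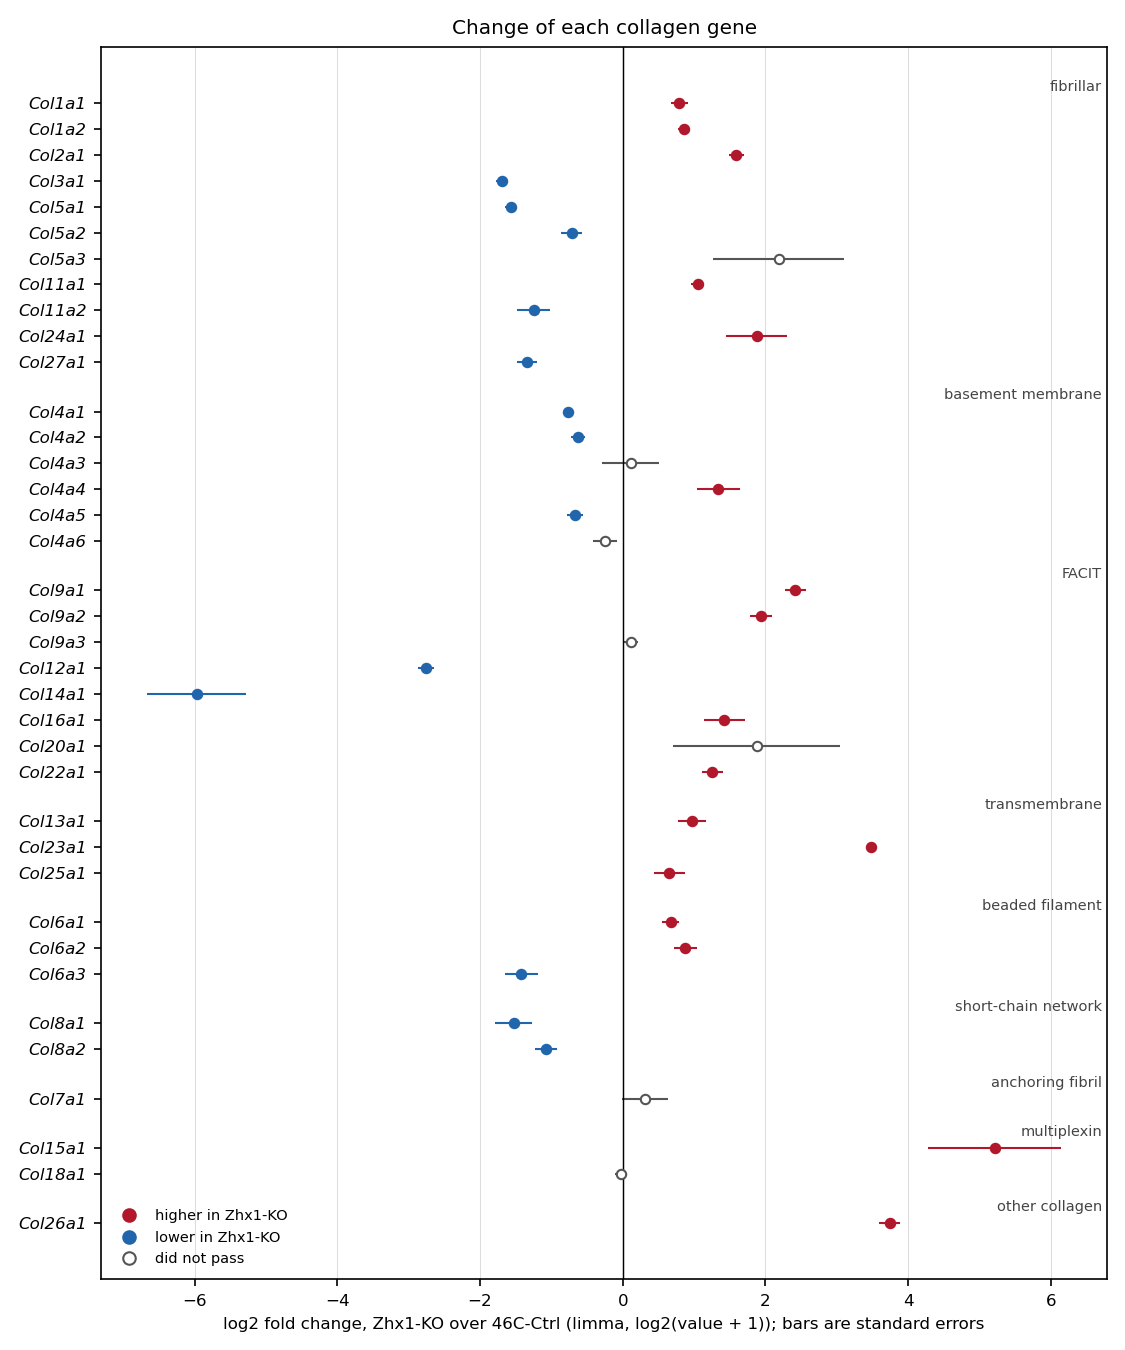
Log2 fold change of each of the 37 tested collagen genes, Zhx1-KO over 46C-Ctrl, with its standard error, by class. Filled red points were higher, filled blue points were lower and open points did not pass at a limma adjusted p under 0.05. Fibrillar chains lie on both sides of 0, and the 3 transmembrane chains lie to the right.

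The major chains of the basement membrane were lower. Of 6 type IV genes, 3 fell, 1 rose and 2 missed the threshold. Col4a1 and Col4a2 encode the chains of the type IV trimer found in nearly all basement membranes. Col4a1 (ENSMUSG00000031502.11, chr8:11198423-11312826, - strand) had 6922, 7385 and 6628 in Zhx1-KO, against 12774, 10589 and 12187 in 46C-Ctrl (log2 fold change -0.76, standard error 0.077, limma adjusted p = 0.000135). Col4a2 (ENSMUSG00000031503.13, chr8:11312805-11449287, + strand) had 4929, 5014 and 4301 in Zhx1-KO, against 8020.2, 6390.5 and 7699 in 46C-Ctrl (log2 fold change -0.63, standard error 0.096, limma adjusted p = 0.0011). Neither gene had overlapping groups, and 46C-Ctrl 2 was the lowest control library for both. The 8 other genes tested within 1 Mb had a median of -0.31, with 0 higher and 4 lower.

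These genes start on opposite strands, and their annotated transcripts share 22 bases of chromosome 8, from 11312805 to 11312826, shown here because reads of this stretch could come from either gene. The authors mapped the reads and computed FPKM with settings for stranded libraries, but the sources used here do not state this for the counting behind this table.
Col4a1/Col4a2 shared start: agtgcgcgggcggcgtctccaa
The stretch is written on the plus strand with no capitals, and it is a small piece of transcripts of 6615 bases for Col4a1 and 6450 bases for Col4a2.

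Col4a3 and Col4a4 encode chains of the kidney glomerular basement membrane, and both were low. Col4a4 had 33.3, 59.7 and 42.2 in Zhx1-KO, against 16.6, 16.6 and 16.9 in 46C-Ctrl, and was higher (log2 fold change 1.34, standard error 0.30, limma adjusted p = 0.00667). Col4a3, its neighbour on the other strand, had 14.1, 23.3 and 15.8 in Zhx1-KO, against 17.6, 10.4 and 22.1 in 46C-Ctrl, and the groups overlapped (limma adjusted p = 0.833). Col4a5 and Col4a6 lie head to head on the X chromosome and encode chains of more restricted membranes. Col4a5 had 758, 724 and 883 in Zhx1-KO, against 1348, 1357 and 1079.9 in 46C-Ctrl, and was lower in each library (log2 fold change -0.68, standard error 0.11, limma adjusted p = 0.00164). Col4a6 had 622, 569 and 509.6 in Zhx1-KO, against 561, 606 and 881 in 46C-Ctrl, with overlap (limma adjusted p = 0.261). The 21 other genes tested from 140 to 150 Mb of the X chromosome had a median of 0.60, with 11 higher and 3 lower, so Col4a5 went against its surroundings.

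FACIT collagens showed some of the largest changes in both directions. Of 8 tested, 4 rose, 2 fell and 2 missed the threshold. Type IX collagen decorates type II fibrils in cartilage. Col9a1 (ENSMUSG00000026147.16, chr1:24177610-24252684, + strand) had 349.7, 393 and 382 in Zhx1-KO, against 57.5, 73.5 and 78 in 46C-Ctrl (log2 fold change 2.42, standard error 0.15, limma adjusted p = 1.15e-05). The 13 other genes tested within 1 Mb of Col9a1 had a median of 0.56, with 2 higher and 1 lower. Col9a2 (ENSMUSG00000028626.5, chr4:121039385-121055322, + strand) had 357, 361 and 380.2 in Zhx1-KO, against 106, 75.6 and 105 in 46C-Ctrl (log2 fold change 1.94, standard error 0.15, limma adjusted p = 3.94e-05). The third chain, Col9a3, had 254, 220.5 and 224 in Zhx1-KO, against 220.4, 210.2 and 212 in 46C-Ctrl. Its groups lay side by side with the smallest of gaps, and it did not pass (limma adjusted p = 0.366).

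Types XII and XIV link fibrils in tendon, ligament and dermis, and both fell. Col12a1 (ENSMUSG00000032332.17, chr9:79598991-79718831, - strand) had 90.7, 80.9 and 78.3 in Zhx1-KO, against 601, 571 and 533 in 46C-Ctrl (log2 fold change -2.76, standard error 0.11, limma adjusted p = 1.56e-06). Col14a1 (ENSMUSG00000022371.16, chr15:55307750-55520803, + strand) had 0, 7.08 and 3.52 in Zhx1-KO, against 232, 199.8 and 192 in 46C-Ctrl. No Zhx1-KO library came near the controls (limma adjusted p = 0.00028), and its log2 fold change of -5.97 depends on the pseudocount because 1 library is listed at 0.

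Col22a1, a FACIT of tissue junctions such as that of muscle and tendon, had 320.5, 304 and 351 in Zhx1-KO, against 155, 112 and 143 in 46C-Ctrl, and was higher in each library (log2 fold change 1.26, standard error 0.14, limma adjusted p = 0.00026). Col16a1, a minor fibril component of skin and cartilage, had 78.6, 129 and 101 in Zhx1-KO, against 41.9, 25.9 and 46.4 in 46C-Ctrl, and was also higher (log2 fold change 1.43, standard error 0.29, limma adjusted p = 0.00433). Col20a1 had 40.3, 24.3 and 28.2 in Zhx1-KO, against 24.4, 0 and 23.2 in 46C-Ctrl, where 1 library is listed at 0, and it did not pass (limma adjusted p = 0.216).

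The 3 transmembrane collagens above the minimum were higher in Zhx1-KO. Col23a1 (ENSMUSG00000063564.13, chr11:51289920-51583918, + strand), whose ectodomain can be shed, had 2823, 3005 and 2796 in Zhx1-KO, against 274, 246 and 252 in 46C-Ctrl. The lowest Zhx1-KO library was far above the highest control, and the mean was 11.2-fold higher (log2 fold change 3.48, standard error 0.067, limma adjusted p = 1.21e-07). Col23a1 lies on chromosome 11, where genes within 1 Mb had a median log2 fold change of 0.45 over 29 genes. Col13a1, a collagen of the neuromuscular junction, had 131, 139.6 and 192 in Zhx1-KO, against 77, 89 and 66.4 in 46C-Ctrl (log2 fold change 0.97, standard error 0.20, limma adjusted p = 0.00435). Col25a1, a neuronal collagen, had 52.4, 50.6 and 53.7 in Zhx1-KO, against 29.3, 31.1 and 39 in 46C-Ctrl, without overlap (log2 fold change 0.65, limma adjusted p = 0.0377). This call was the least stable of the 30. It was lost with the replicate number as a block (adjusted p = 0.0763), and over the settings tried its adjusted p ran from 0.00843 to 0.124.

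The 150 bases before the start of Col23a1 (chr11:51289770-51289919, + strand; RefSeq, GRCm38.p6) are shown because it had the smallest adjusted p of the collagen genes, with capitals as above.
Col23a1: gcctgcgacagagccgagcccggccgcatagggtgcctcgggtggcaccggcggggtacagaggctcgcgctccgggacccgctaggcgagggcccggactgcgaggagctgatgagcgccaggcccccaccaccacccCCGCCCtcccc
This stretch held 76.7% G and C and 1 GGGCGG match.

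Col26a1 (ENSMUSG00000004415.15, chr5:136741759-136883209, - strand), a short collagen first described in testis and ovary, belongs to none of these classes. It had 1129, 1208 and 1076 in Zhx1-KO, against 70.2, 81.8 and 103 in 46C-Ctrl, 13.4-fold higher by the means and without overlap (log2 fold change 3.74, standard error 0.14, limma adjusted p = 1.47e-06). Genes within 1 Mb of it had a median of -0.12 over 41 genes.

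The multiplexins, types XV and XVIII, are collagens of basement membranes that carry glycosaminoglycan chains and the fragments restin and endostatin. Col18a1 (ENSMUSG00000001435.15, chr10:77052178-77166548, - strand) was the most abundant collagen per kb in both groups, with 14147, 15372 and 13630.1 normalized counts in Zhx1-KO, against 15924, 12852 and 15224 in 46C-Ctrl. The groups overlapped (log2 fold change -0.024, standard error 0.086, limma adjusted p = 0.836). Col15a1 (ENSMUSG00000028339.17, chr4:47208161-47313167, + strand) had 205, 212 and 214 in Zhx1-KO, against 0, 12.4 and 12.7 in 46C-Ctrl. It was higher (limma adjusted p = 0.00237), and the size of its log2 fold change, 5.22, depends on the pseudocount because of the control library listed at 0.

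Type VI collagen forms beaded microfilaments from chains of Col6a1, Col6a2 and Col6a3. Col6a1 had 238, 277 and 259.6 in Zhx1-KO, against 151, 152 and 182 in 46C-Ctrl (log2 fold change 0.67, standard error 0.12, limma adjusted p = 0.00259). Col6a2, its neighbour on chromosome 10, had 138, 142 and 173 in Zhx1-KO, against 74.1, 90.1 and 80.1 in 46C-Ctrl (log2 fold change 0.88, standard error 0.16, limma adjusted p = 0.0024). Both were higher, while the third chain was lower. Col6a3 had 20.2, 23.3 and 21.1 in Zhx1-KO, against 62.4, 51.8 and 64.3 in 46C-Ctrl (log2 fold change -1.42, standard error 0.23, limma adjusted p = 0.00139). The 15 other genes tested within 1 Mb of Col6a3 had a median log2 fold change of -0.58, with 3 higher and 9 lower. The part of this regional shift in the Col6a3 value was not tested.

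Type VIII collagen, the short-chain network of vessel walls and of the corneal Descemet's membrane, was lower in both chains. Col8a2 had 127, 183 and 146 in Zhx1-KO, against 351, 306 and 295 in 46C-Ctrl (log2 fold change -1.07, standard error 0.15, limma adjusted p = 0.000784). Col8a1 had 18.1, 21.2 and 15 in Zhx1-KO, against 48.8, 50.7 and 62.2 in 46C-Ctrl (log2 fold change -1.53, standard error 0.26, limma adjusted p = 0.00186). Col7a1, the anchoring fibril of skin, had 202, 344 and 308 in Zhx1-KO, against 319, 139.8 and 249 in 46C-Ctrl, with overlap (limma adjusted p = 0.44).

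The 7 genes below the minimum were Col6a4, Col6a5, Col6a6, Col10a1, Col17a1, Col19a1 and Col28a1. Col6a4 reached 13.5 normalized counts in 46C-Ctrl 2, and Col17a1, the hemidesmosome collagen, reached 6.07 in Zhx1-KO 2. Col28a1 reached 4.40, Col6a5 3.16, Col10a1, the mark of hypertrophic cartilage, 2.02, Col19a1 2.02 and Col6a6 0.975. Just inside the minimum were Col5a3, with a mean of 13.8 over the 6 libraries, and Col4a3, with 17.2. Just outside it were Col6a4, with 3.87, and Col17a1, with 2.59.

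Summed over the 44 genes, collagen values made up 0.330%, 0.344% and 0.311% of all values in Zhx1-KO, against 0.371%, 0.310% and 0.351% in 46C-Ctrl. The groups overlapped in this total. Per kb of transcript (the longest protein-coding transcript of each gene), basement membrane chains held 24.8% ± 0.401 in Zhx1-KO and 40.4% ± 0.152 in 46C-Ctrl of the summed collagen level (SD, n = 3 each). Fibrillar chains held 24.2% ± 0.494 in Zhx1-KO and 20.5% ± 0.321 in 46C-Ctrl, and multiplexins held 32.3% ± 0.291 in Zhx1-KO and 32.7% ± 0.519 in 46C-Ctrl. The transmembrane share was 7.0% ± 0.296 in Zhx1-KO and 0.946% ± 0.105 in 46C-Ctrl. Within this class Col23a1 had 508 of 565 normalized counts per kb in Zhx1-KO, but 45.5 of 75.2 in 46C-Ctrl (means). The share of Col26a1 with Col28a1 was 5.07% ± 0.0158 in Zhx1-KO and 0.39% ± 0.0769 in 46C-Ctrl. Shares sum to 100%, so a class with a smaller share need not have a lower level.

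**Figure D3:**
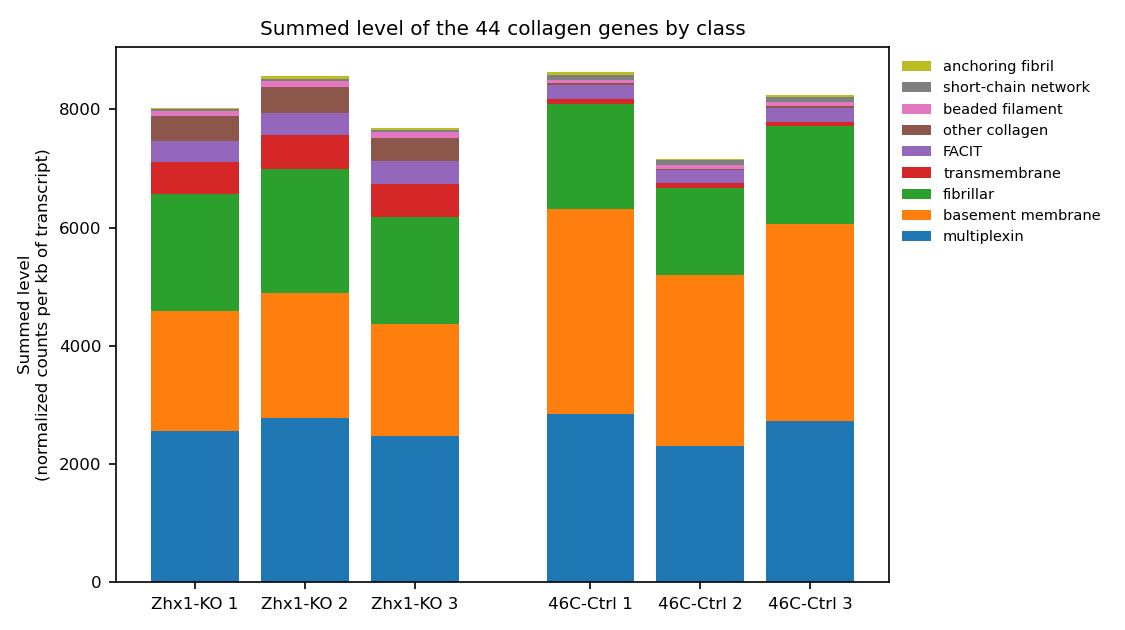
Summed level of the 44 collagen genes in each library, in normalized counts per kb of transcript, stacked by class. The 3 bars of Zhx1-KO show a shorter basement membrane segment and visible transmembrane (Col23a1) and other (Col26a1) segments that are thin in the 3 bars of 46C-Ctrl.

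The order of the genes per kb changed below the first ranks. Col18a1 had rank 1 and Col4a1 rank 2 in both groups, at 2571 in Zhx1-KO and 2621 in 46C-Ctrl normalized counts per kb for Col18a1 and 1055 in Zhx1-KO and 1791 in 46C-Ctrl for Col4a1. Col2a1 had rank 3 in Zhx1-KO and rank 5 in 46C-Ctrl, Col23a1 rank 5 in Zhx1-KO and rank 15 in 46C-Ctrl, and Col5a1 rank 9 in Zhx1-KO and rank 4 in 46C-Ctrl. Col26a1 stood at 409 in Zhx1-KO and 30.6 in 46C-Ctrl per kb. Col14a1 had rank 37 in Zhx1-KO and rank 19 in 46C-Ctrl, at 0.547 in Zhx1-KO and 32.2 in 46C-Ctrl per kb.

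Ratios of chains that share a trimer or a fibril were compared within each library, for 14 pairs. With 3 libraries against 3, the exact two-sided permutation test can give no p below 0.1, and after adjustment over the 14 pairs none lay below 0.14, so none passes. The chains of type I kept close together. The log2 ratio of Col1a1 over Col1a2 was 0.29, 0.28 and 0.0034 in Zhx1-KO, against 0.32, 0.26 and 0.19 in 46C-Ctrl (exact p = 0.7), and per kb the ratio was 1.04 ± 0.114 in Zhx1-KO and 1.08 ± 0.0505 in 46C-Ctrl (SD, n = 3 each). Col4a1 over Col4a2 was 0.49, 0.56 and 0.62 in Zhx1-KO, against 0.67, 0.73 and 0.66 in 46C-Ctrl, a small difference of -0.13 without overlap (exact p = 0.1).

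For other partners the ratio differed more between the groups, without overlap. Col11a1 over Col11a2 had a log2 ratio of 3.94, 3.99 and 4.88 in Zhx1-KO, against 2.03, 1.83 and 2.06 in 46C-Ctrl, and per kb the ratio was 16.2 ± 6.48 in Zhx1-KO and 3.12 ± 0.265 in 46C-Ctrl (SD, n = 3 each). Col5a1 over Col5a2 was 3.93, 4.07 and 4.07 in Zhx1-KO, against 4.87, 4.86 and 4.90 in 46C-Ctrl. Col6a3 over Col6a1 was -3.50, -3.52 and -3.56 in Zhx1-KO, against -1.26, -1.54 and -1.49 in 46C-Ctrl, and the libraries within each group were tight. In type IX, Col9a3 over Col9a2 was -0.49, -0.71 and -0.76 in Zhx1-KO, against 1.05, 1.46 and 1.0 in 46C-Ctrl, and per kb the ratio was 0.612 ± 0.0625 in Zhx1-KO and 2.20 ± 0.411 in 46C-Ctrl (SD, n = 3 each), below 1 in Zhx1-KO and above 1 in 46C-Ctrl. Each of these pairs had an exact p of 0.1, the smallest the test can give. Differences in the same order were 2.30, -0.85, -2.09 and -1.82.

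Of the remaining pairs, Col2a1 over Col11a1 differed by 0.54, Col9a1 over Col9a2 by 0.48 and Col4a3 over Col4a4 by -1.23, each with an exact p of 0.1. Col4a5 over Col4a6 differed by -0.43 and Col6a1 over Col6a2 by -0.21, both with overlap and an exact p of 0.3. Col8a1 over Col8a2 differed by -0.46 (exact p = 0.2). For Col5a3 over Col5a1 and Col15a1 over Col18a1 the ratio rests on a library listed at 0, and no size is given.

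**Figure D4:**
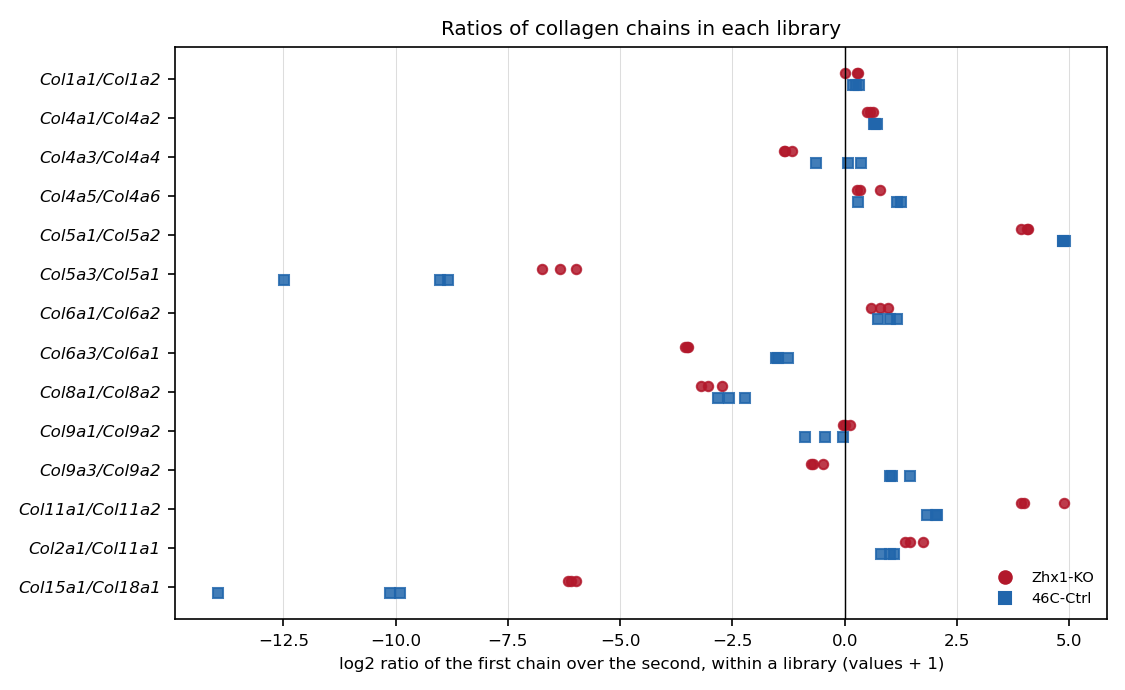
Log2 ratio of the first chain over the second in each library, for 14 pairs, with circles for Zhx1-KO and squares for 46C-Ctrl. Col1a1/Col1a2 overlap near 0, while Col11a1/Col11a2, Col9a3/Col9a2 and Col6a3/Col6a1 are separated. The far left squares of Col5a3/Col5a1 and Col15a1/Col18a1 are a library listed at 0.

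Genes that modify, fold, export, trim, cross-link and bind collagen were read from 9 lists, 105 genes tested in all. Of these, 34 rose, 49 fell and 22 missed the threshold, with a median log2 fold change of -0.15, beside 0.0088 for all genes. The counts here and in the marker sets stand against a background of 52% of all genes called, 25.6% higher and 26.4% lower. Like Col5a3, Col14a1 and Col15a1, some genes of these sets passed the minimum only through the group in which they were high. Prolyl and lysyl hydroxylases stabilise the helix and prepare its cross-links, and 7 of 14 tested genes rose, 5 fell and 2 missed the threshold (median 0.087). The alpha subunits of prolyl 4-hydroxylase went different ways. P4ha3 had 26.5 ± 4.71 in Zhx1-KO and 167 ± 20.7 in 46C-Ctrl (SD, n = 3 each; log2 fold change -2.62, limma adjusted p = 3.9e-05). P4ha2, on chromosome 11, had 427 ± 12 in Zhx1-KO and 179 ± 38.3 in 46C-Ctrl (SD, n = 3 each; 1.27, limma adjusted p = 0.000278), and P4ha1 rose by 0.33 on the log2 scale. The shared beta subunit P4hb rose by 0.27, below the median of 0.42 of its chromosome 11. Crtap, of the prolyl 3-hydroxylation complex, was lower (-1.12), and P3h4, of a lysyl hydroxylation complex and on chromosome 11, and Plod2, a lysyl hydroxylase of cross-linking, were higher (0.64 and 0.69).

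Chaperones and export factors were mostly lower: 3 of 16 tested genes rose, 10 fell and 3 missed the threshold (median -0.53). Serpinh1, the collagen-specific chaperone HSP47, had 7511 ± 250.0 in Zhx1-KO and 11902 ± 402 in 46C-Ctrl (SD, n = 3 each; log2 fold change -0.66, limma adjusted p = 2.41e-05). Sparc, a collagen-binding matrix protein, had 2797 ± 179 in Zhx1-KO and 4925 ± 373 in 46C-Ctrl (SD, n = 3 each; -0.82, limma adjusted p = 6.65e-05), although it lies on chromosome 11. The endoplasmic reticulum proteins Pdia3 and Hspa5 had log2 fold changes of -0.98 and -0.96, and Sec13, of the COPII coat, one of -0.71. Creb3l1, a transcription factor that drives collagen secretion in bone, fell to 261 ± 20.7 in Zhx1-KO, against 830.2 ± 109 in 46C-Ctrl (SD, n = 3 each; -1.66).

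Proteinases that trim procollagens, with their enhancers and activator, were lower or did not pass: 0 of 8 tested genes rose, 6 fell and 2 missed the threshold in limma (median -0.95). The highest log2 fold change among the 8 was -0.15, so 0 were higher at an unadjusted p under 0.05 as well. Adamts2, the main amino-propeptidase of types I and II, on chromosome 11, had 62.9 ± 11.2 in Zhx1-KO and 409 ± 19.9 in 46C-Ctrl (SD, n = 3 each; log2 fold change -2.70, limma adjusted p = 8.46e-06). Adamts3, its relative, had a log2 fold change of -1.67. Bmp1 and Tll1, which remove the carboxy-propeptide, had -0.76 and -3.52, and Furin, which activates these enzymes, had -1.14. Of the fibrillar procollagens, which this group of enzymes trims, Col1a1, Col1a2, Col2a1 and Col11a1 were higher in the same libraries, and Col3a1, Col5a1, Col5a2 and Col11a2 were lower.

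Among the lysyl oxidases and peroxidasin, which cross-link fibrils and type IV collagen, 0 of 6 tested genes rose, 3 fell and 3 missed the threshold (median -0.30; 0 were higher at an unadjusted p under 0.05 from limma too). Pxdn, which forms the sulfilimine bonds of type IV collagen, had 3728 ± 305 in Zhx1-KO and 5232 ± 378 in 46C-Ctrl (SD, n = 3 each; log2 fold change -0.49, limma adjusted p = 0.00125), the direction of Col4a1 and Col4a2. Loxl1 and Loxl4 were lower (-1.16 and -2.38). Loxl2 had 3437 ± 56.5 in Zhx1-KO and 3718 ± 159 in 46C-Ctrl (SD, n = 3 each; limma adjusted p = 0.0838), and Lox, the founding member, had 21.4 ± 9.46 in Zhx1-KO and 14 ± 4.12 in 46C-Ctrl (SD, n = 3 each; limma adjusted p = 0.394). Neither passed.

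For collagen receptors, 2 of 9 tested genes rose, 5 fell and 2 missed the threshold (median -0.53). The discoidin domain receptors went opposite ways. Ddr2, the receptor for fibrillar collagens in mesenchyme, had 289 ± 27.3 in Zhx1-KO and 27.3 ± 3.78 in 46C-Ctrl (SD, n = 3 each; log2 fold change 3.36, limma adjusted p = 4.59e-06). Ddr1, the epithelial receptor that also binds type IV collagen, had 652 ± 156 in Zhx1-KO and 1439.7 ± 108 in 46C-Ctrl (SD, n = 3 each; -1.17, limma adjusted p = 0.000629). Itga1 and Itgb1, the subunits of a collagen-binding integrin, were lower (-1.38 and -0.70), and Mrc2, which takes up collagen fragments and lies on chromosome 11, was higher (1.15).

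Partners of type IV collagen in the basement membrane were mixed: 5 of 14 tested genes rose, 7 fell and 2 missed the threshold (median -0.25). Nid2, a linker of laminin and type IV collagen, had 2840.4 ± 134 in Zhx1-KO and 5254 ± 246 in 46C-Ctrl (SD, n = 3 each; log2 fold change -0.89, limma adjusted p = 1.36e-05), and its relative Nid1 was higher (0.34). The laminin chains Lamb1 and Lamc1 were lower (-0.74 and -0.67), as was the proteoglycan Hspg2 (-1.15). Smoc1, a calcium-binding basement membrane protein, was higher, with 1054 ± 12.3 in Zhx1-KO and 168 ± 41.6 in 46C-Ctrl (SD, n = 3 each; 2.68).

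For transcription factors known to act on collagen genes, 9 of 18 tested genes rose, 5 fell and 4 missed the threshold (median 0.24). Sox9, the activator of Col2a1, Col9a1 and Col11a2 in cartilage, had 1037 ± 82.9 in Zhx1-KO and 406 ± 39.8 in 46C-Ctrl (SD, n = 3 each; log2 fold change 1.35, limma adjusted p = 2.43e-05) and lies on chromosome 11. Lmx1b, which acts on Col4a3 and Col4a4 in the kidney glomerulus, had 366 ± 22.9 in Zhx1-KO and 34.3 ± 10.3 in 46C-Ctrl (SD, n = 3 each; 3.42, limma adjusted p = 2.1e-05). Tead1, a partner of Yap, and Twist2, a mesenchymal factor, were lower (-1.0 and -1.44).

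**Figure D5:**
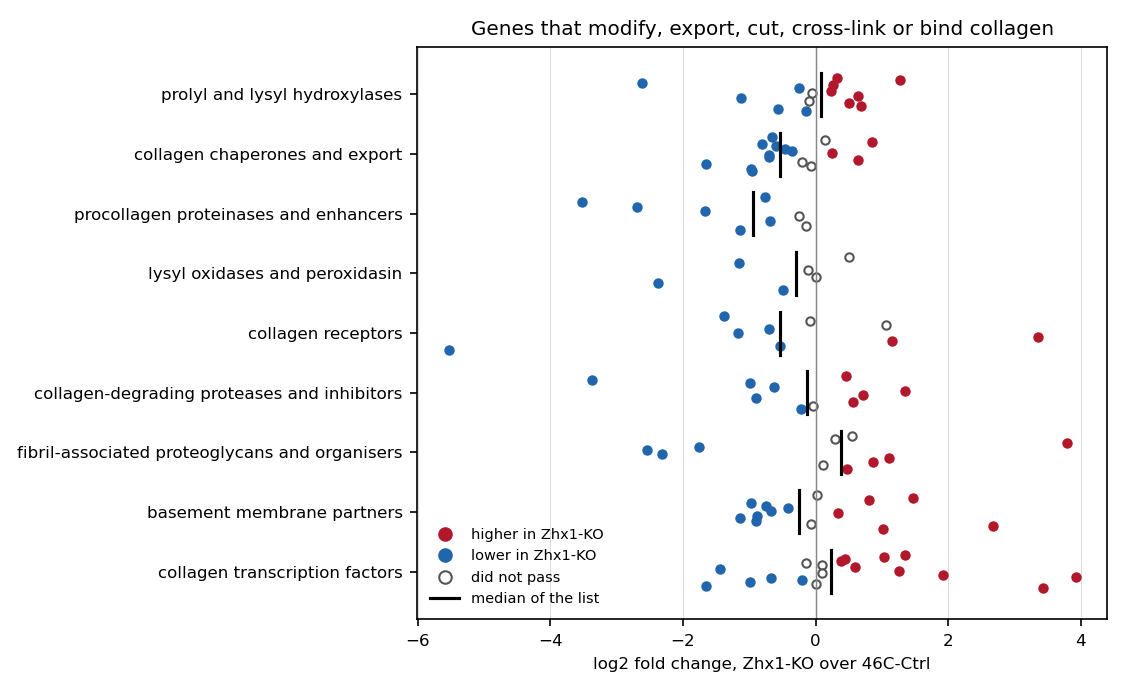
Log2 fold change, Zhx1-KO over 46C-Ctrl, of each tested gene of the 9 lists, with the median of each list as a bar. Filled red points were higher, filled blue points were lower and open points did not pass. No proteinase or enhancer point is filled red, while transcription factors have points at both ends.

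Markers of several cell types moved in the same libraries, and their part in the collagen values was not tested. For cartilage markers, 5 of 8 tested genes rose, 2 fell and 1 missed the threshold, with summed values of 1928 to 2099 in Zhx1-KO and 757 to 862 in 46C-Ctrl. Hapln1, which links aggrecan to hyaluronan, had the largest log2 fold change of those that rose (2.30). Matn4 and Ucma, also cartilage matrix genes, were lower and listed at 0 in all 3 Zhx1-KO libraries. Both passed the minimum only through 46C-Ctrl, Ucma with a mean of 10.1 over all libraries. Acan, which rose, passed it only through Zhx1-KO. Notochord markers, another site of type II collagen, were mixed: 2 of 6 tested genes rose, 2 fell and 2 missed the threshold, with sums of 2983 to 3078 in Zhx1-KO and 2852 to 2909 in 46C-Ctrl. For somite and sclerotome markers, 7 of 7 tested genes rose, 0 fell and 0 missed the threshold. Of these, Pax3 and Nkx3-2 passed the minimum only through Zhx1-KO. The sums were 1905 to 1961 in Zhx1-KO and 621 to 728 in 46C-Ctrl. Among collagens known from cartilage, Col2a1, Col9a1, Col9a2 and Col11a1 were higher, Col11a2 and Col27a1 were lower, and Col9a3 did not pass.

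For fibroblast and mesenchyme markers, 7 of 9 tested genes rose, 2 fell and 0 missed the threshold, although their summed values were lower, 9796 to 10152 in Zhx1-KO and 13600.5 to 14011 in 46C-Ctrl, and Vim, the intermediate filament of mesenchyme, was lower (-1.11). The collagen chains known from fibroblasts split, with Col1a1 and Col1a2 higher and Col3a1 lower. For endothelial markers, 11 of 12 tested genes rose, 0 fell and 1 missed the threshold, with sums of 5793 to 6106 in Zhx1-KO and 1234 to 1333 in 46C-Ctrl. Emcn, at or near 0 in 46C-Ctrl, passed the minimum only through Zhx1-KO. The endothelial markers stand beside the higher Col15a1, a collagen of vessel walls, and the lower Col4a1 and Col8a1. For markers of parietal and visceral endoderm, which makes much type IV collagen, 2 of 11 tested genes rose, 8 fell and 1 missed the threshold, with sums of 3251 to 3498 in Zhx1-KO and 6236 to 7069 in 46C-Ctrl. Gata4 fell from a mean of 1609 in 46C-Ctrl to 95.1 in Zhx1-KO, and Gata6 from 861 to 175. The authors tie both to cardiac gene expression in the early embryo. Sox7 and Thbd rose, and Lama1 did not pass, with means of 2234 in Zhx1-KO and 2209 in 46C-Ctrl. Afp and Apoa1, which fell, passed the minimum only through 46C-Ctrl. For neural markers, 9 of 11 tested genes rose, 1 fell and 1 missed the threshold. Their sums were 6404 to 6487 in Zhx1-KO and 3803 to 4246 in 46C-Ctrl. The gene that fell, Nes, had 1652 ± 93.7 in Zhx1-KO and 2804 ± 278 in 46C-Ctrl (SD, n = 3 each). Pax6 had 24.4 ± 8.91 in Zhx1-KO (SD, n = 3) and was listed at 0 in all 46C-Ctrl libraries. Pax6, Six3 and Hesx1 passed the minimum only through Zhx1-KO. For neural crest markers, 0 of 7 tested genes rose, 3 fell and 4 missed the threshold, with sums of 1760.3 to 1873 in Zhx1-KO and 2371 to 2623 in 46C-Ctrl, and at an unadjusted p under 0.05 from limma 1 of them, Sox10, was higher.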

How the data were processed

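PolyA RNA of mouse CP cells was sequenced from Illumina TruSeq libraries, 3 of Zhx1-KO and 3 of 46C-Ctrl. Trimming with cutadapt 1.18, strand-aware mapping to GRCm38 with HISAT2 2.1.0 and FPKM from StringTie 1.3.4d (not used here) were done by the authors, and the submitters' processing notes list Cufflinks and DESeq2 as well. The table used here holds a deposited signal, the count of each gene divided by a factor for its library. The counting program is not stated in the sources used here. Each value is a whole multiple of the library's step (100% within 0.01), and 2 steps lie near 1 (1.01). Whole reads were not taken as recovered, and no count test was run.

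The 15372 of 25701 genes with a mean of at least 10 were tested on log2(value + 1), by limma 3.58.1 (R 4.3.3) with its trend option, and p-values were adjusted by Benjamini-Hochberg over all of them. On this scale the pseudocount shrinks the fold change of low genes, but a library listed at 0 can enlarge it. Col20a1, for example, had a log2 fold change of 1.88 beside a 1.95-fold difference of the means. An exact 0 means that no count was listed for that gene in that library. It need not mean that the transcript was absent. Chain ratios used exact two-sided permutation tests. Gene positions and transcript lengths came from a GENCODE annotation of GRCm38, and classes and lists from textbook knowledge. The members, lists and rule for named genes were chosen with earlier results of these data known. The rule names each collagen gene, up to 4 genes per list by adjusted p and a set of well known collagen partners. Alternatives were other pseudocounts, filters and scalings, no trend, a replicate block, a 2-fold minimum and each library left out. On simulated data for this comparison (15242 genes tested), 69 of 100 genes changed 2-fold and 55 of 100 changed 1.5-fold were called, and 5 of 15042 unchanged genes. The changed genes, each with a mean of at least 50, were few, while 52% of all genes tested were called in the data. The adjusted threshold depends on this share, so the simulated counts do not give the detection rate in these data. Every per-sample column was used.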

Additional observations from a re-analysis of the deposited data

How the results depend on the processing

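Of the 37 tested collagen genes, 32 kept their direction and their side of the threshold in each of the 14 settings that tested them (a mean of at least 50 left 29 of the 37), and the other 5 were Col25a1, Col5a3, Col4a3, Col7a1 and Col18a1. Counts of collagen genes stayed at 16 to 17 higher and 13 lower when each library was left out in turn. A 2-fold minimum gave 11 higher and 9 lower collagen genes, 2700 for all genes called, and 15 higher and 19 lower genes of the 9 lists. The log2 fold change of Col4a3, which did not pass, was -0.13 after quantile normalization, and leaving out a library moved it between -0.18 and 0.34. Likewise Col7a1 ran from -0.022 to 0.57 and Col18a1 from -0.12 to 0.038, neither passing, and Col7a1 was below 0 only without 46C-Ctrl 2. The ratio difference of Col1a1 over Col1a2 ran from -0.11 to 0.031. In limma without trend, Sox10, a neural crest marker, passed (adjusted p = 0.0112). Chrd, a notochord marker, lost its call in 6 settings. The cause was not tested in any of these. Per kb of transcript the shares were 24.2% in Zhx1-KO and 20.5% in 46C-Ctrl for fibrillar, 24.8% and 40.4% for basement membrane, 32.3% and 32.7% for multiplexin, 4.59% and 2.86% for FACIT, and 7.0% and 0.946% for transmembrane chains, and on values, in the same order, 25.3% and 22.4%, 28.6% and 42.6%, 31.7% and 29.5%, 3.31% and 2.71%, and 6.71% and 0.747%. The mean difference of multiplexins thus changed sign with the scale. Per kb the groups overlapped, at 32.0% to 32.6% in Zhx1-KO and 32.1% to 33.1% in 46C-Ctrl. On values they did not, at 31.4% to 32.0% in Zhx1-KO and 29.0% to 29.8% in 46C-Ctrl.

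The replicate numbers share only a number, since deviations of same-numbered libraries correlated at 0.004, -0.069 and 0.001. With the replicate number as a block, 16 collagen genes were higher and 13 lower, the number for all genes called was 7374, and Col25a1 was the only collagen gene to lose its call. The 3 libraries per group limit the precision, and genes near the minimum, such as Col4a3, Col5a3, Col20a1 and Col24a1, rest on few reads.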

Other observations

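Collagen-degrading proteases and their inhibitors were mixed: 4 of 10 tested genes rose, 5 fell and 1 missed the threshold (median log2 fold change -0.13, beside 0.0088 for all genes tested). Mmp14, the membrane-bound collagenase, had normalized counts of 989.8 ± 40.7 in Zhx1-KO and 1960.2 ± 138 in 46C-Ctrl (SD, n = 3 each; log2 fold change -0.98, limma adjusted p = 2.08e-05). Mmp2, the gelatinase that Mmp14 activates, was higher, with 2685 ± 133 in Zhx1-KO and 1952 ± 32.1 in 46C-Ctrl (SD, n = 3 each; 0.46, limma adjusted p = 0.000254). Timp2, which takes part in that activation and lies on chromosome 11, was lower (-0.90), Timp3 was higher (0.56), and Mmp15 was lower (-0.63).

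Proteoglycans and organisers of the fibril surface were mixed as well: 4 of 10 tested genes rose, 3 fell and 3 missed the threshold (median 0.38). Fn1, the fibronectin on which collagen fibrils assemble, had normalized counts of 11435 ± 424 in Zhx1-KO and 38722 ± 3500.3 in 46C-Ctrl (SD, n = 3 each; log2 fold change -1.76, limma adjusted p = 1.58e-06). Thbs1 and Tnc, adhesion-modulating matrix proteins, were also lower (-2.31 and -2.54). Lum, a proteoglycan that limits fibril width in cornea and skin, was higher, with 665 ± 37.3 in Zhx1-KO and 48.6 ± 14 in 46C-Ctrl (SD, n = 3 each; 3.79, limma adjusted p = 6.89e-06).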
